A study of Mus musculus with 6 samples.

Results

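Mitochondrial ribosomal proteins are made in the cytosol from nuclear genes, imported, and assembled with 2 ribosomal RNAs of mitochondrial DNA into the mitoribosome. That ribosome translates the few mRNAs of mitochondrial DNA, all of which encode membrane subunits of the respiratory chain and ATP synthase. Activation of T cells is known to increase both mitochondrial mass and mitochondrial protein synthesis.

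The genes described here are the protein-coding rows of the deposited tables whose GENCODE vM21 name begins with Mrpl or Mrps and a digit. There were 78 of them among 55450 genes, 49 with a large-subunit name (Mrpl) and 29 with a small-subunit name (Mrps), on 17 chromosomes. Of the 78, 77 had enough reads to be tested. The remaining gene, Mrpl53, had 0 reads in each of the 6 libraries. It shares 88.0% of its exon length with the overlapping genes Gm42688 and Ccdc142os, and the part of that overlap in the 0 was not tested. 5 further rows with a matching name are pseudogenes and were left out.

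RNA was sequenced from Th17 cells, the IL-17-producing class of helper T cells, in 3 groups of 2 libraries. Cells of the first group were transduced with ADAR2 WT, those of the second with ADAR2 E396A, an enzymatically dead form, and those of the control group with the empty retroviral vector, MSCV (murine stem cell virus). ADAR2, encoded by Adarb1, is an editing enzyme that converts adenosines of double-stranded RNA to inosine. In all groups naive CD4+ T cells of wildtype mice aged 8 to 12 weeks were activated through CD3 and CD28 with IL-6 at 20 ng/mL and TGF-beta at 0.1 ng/mL. They were transduced after 24 h and kept for another 48 h with TGF-beta at 0.3 ng/mL, 72 h in all. Each of 2 mice gave 1 library per group; the mice are called donors A and B. The labels do not say whether transduced cells were purified, so untransduced cells may be present in every library. In bulk RNA, fewer cells of a kind and less RNA per cell cannot be told apart.

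Reads assigned to genes ranged from 16496328 to 21897166 per library. Adarb1 was at 18422 and 18999 normalized counts in the ADAR2 WT libraries of donors A and B, at 15644 and 14920 in the ADAR2 E396A libraries, and at 3672 and 3333 in the empty-vector libraries. Levels are given here as reads per kilobase of exon, scaled as TPM values are, over nuclear protein-coding genes. On that scale the T cell genes Cd3e and Cd4 lay at 207 to 254 and 675 to 867, and the Th17 cytokine gene Il17a at 455 to 3505. The B cell, myeloid, erythroid and stromal markers checked were at most 6.03, the highest being Cd79a, and Ms4a1 and the NK cell gene Ncr1 were at 0. Of the 2 CD8 genes, Cd8b1 was at 17.0 to 23.1 and Cd8a at 0.563 to 4.07. Klrd1, a receptor gene of NK and CD8 T cells, was at 3.12 and 6.12 with ADAR2 WT, at 18.2 and 19.2 with ADAR2 E396A and at 29.5 and 19.3 with empty vector. The part of such cells in the results was not tested.

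GABP (an ETS factor), NRF1 and YY1 are known to bind promoters of nuclear genes for mitochondrial proteins, and the sequences below show where their motifs stand in 3 promoters of the family. Each window runs from 250 bases before to 50 bases after a RefSeq transcription start (GRCm38.p6, written 5′ to 3′ on the strand of the gene). Mrpl22 lies at chr11:58171414-58171713 on the plus strand, Mrpl52 at chr14:54426659-54426958 on the plus strand and Mrps15 at chr4:126046678-126046977 on the plus strand. Capitals mark matches, on either strand, to CCGGAAG (ETS factors such as GABP), GCATGCG (the core of the NRF1 site), ATGGCGG (YY1) and CCAAT (NF-Y). Mrpl22, a protein of the large subunit, was the only gene of the family with matches to all of the first 3. Mrpl52 had the highest level in these cells, and Mrps15 the largest difference between ADAR2 WT and empty vector.
Mrpl22: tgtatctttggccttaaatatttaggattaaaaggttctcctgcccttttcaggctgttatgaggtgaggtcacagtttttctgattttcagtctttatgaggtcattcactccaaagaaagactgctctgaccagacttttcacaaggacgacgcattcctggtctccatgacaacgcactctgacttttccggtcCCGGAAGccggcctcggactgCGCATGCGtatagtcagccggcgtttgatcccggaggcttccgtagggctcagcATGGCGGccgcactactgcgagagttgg
Mrpl52: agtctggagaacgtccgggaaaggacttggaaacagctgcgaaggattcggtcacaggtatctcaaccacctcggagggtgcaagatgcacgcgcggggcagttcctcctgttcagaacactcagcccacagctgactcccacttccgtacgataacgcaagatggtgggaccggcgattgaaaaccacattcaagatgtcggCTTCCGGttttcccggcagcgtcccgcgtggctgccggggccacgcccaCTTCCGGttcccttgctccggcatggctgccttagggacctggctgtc
Mrps15: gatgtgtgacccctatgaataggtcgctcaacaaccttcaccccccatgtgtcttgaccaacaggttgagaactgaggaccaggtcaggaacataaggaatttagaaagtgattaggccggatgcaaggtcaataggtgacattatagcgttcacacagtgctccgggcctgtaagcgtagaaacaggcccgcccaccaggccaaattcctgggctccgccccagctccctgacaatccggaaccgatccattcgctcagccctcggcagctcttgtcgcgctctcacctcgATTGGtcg

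RefSeq promoters were found for 69 of the 78 genes, 75 windows in all. CCGGAAG was present for 26 of the 69 genes, 37.7%, against 13.4% of 16522 protein-coding genes with a promoter in the same table. ATGGCGG was present for 13 genes, 18.8% against 6.22%, and GCATGCG for 8 genes, 11.6% against 5.13%. At least 1 of these 3 motifs was found for 37 genes, 53.6% against 21.8%. CCAAT was found for 27 genes, 39.1% against 42.1%. The NRF1 motif is nearly palindromic, so matches 1 base apart on opposite strands are the same site. The median GC content of the windows was 58.7%, and 57% over protein-coding genes. A match is a description of these letters and does not show binding.

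Many of the genes start back to back with a neighbour. For 33 of the 78, 42.3%, another protein-coding gene on the opposite strand starts within 1000 bases, against 2384 of 21951 protein-coding genes, 10.9%. The partners include other mitochondrial genes: Twnk, the mitochondrial DNA helicase, beside Mrpl43, the respiratory complex I subunits Ndufb5 and Ndufs6 beside Mrpl47 and Mrpl36, and Sars2, the mitochondrial seryl-tRNA synthetase, beside Mrps12. Mrpl46 and Mrps11, both of the family, start back to back on chromosome 7. Their windows (chr7:78783040-78783339 on the minus strand and chr7:78782881-78783180 on the plus strand) share the 141 bases printed in capitals, each in its own gene's direction.
Mrpl46: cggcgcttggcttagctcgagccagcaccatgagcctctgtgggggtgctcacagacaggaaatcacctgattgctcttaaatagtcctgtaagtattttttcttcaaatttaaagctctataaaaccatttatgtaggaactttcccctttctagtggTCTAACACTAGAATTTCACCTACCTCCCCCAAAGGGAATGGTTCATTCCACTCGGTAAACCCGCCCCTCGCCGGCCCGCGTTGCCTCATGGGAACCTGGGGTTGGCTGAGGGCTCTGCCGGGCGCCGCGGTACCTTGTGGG
Mrps11: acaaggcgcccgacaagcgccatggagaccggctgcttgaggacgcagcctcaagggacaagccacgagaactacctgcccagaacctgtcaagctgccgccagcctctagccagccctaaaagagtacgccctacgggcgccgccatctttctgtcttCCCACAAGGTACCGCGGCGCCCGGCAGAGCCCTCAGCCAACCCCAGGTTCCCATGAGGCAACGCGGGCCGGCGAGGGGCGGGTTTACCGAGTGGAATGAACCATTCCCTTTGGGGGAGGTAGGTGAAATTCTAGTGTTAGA

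The tested genes had broadly similar read numbers. Each had between 163 and 1603 reads in a library, with a median of 618. Mean levels over the 6 libraries ran from 11.2 to 266, a 23.7-fold range around a median of 52.1, and 58 of 77 lay between 0.5 and 2 times that median. The highest were Mrpl52 (266 ± 19.0), a large-subunit protein found in mitoribosomes and not in bacteria, Mrpl18 (213 ± 13.4), Mrpl12 (198 ± 16.5), which forms the flexible stalk that recruits translation factors, Mrps21 (174 ± 9.46) and Mrpl34 (143 ± 13.8; SD, n = 6 for each). The lowest of those tested were Mrpl48 (11.2 ± 0.69), Mrpl47 (14.2 ± 1.02), Mrpl23 (14.4 ± 1.09), Mrps35 (16.8 ± 0.88) and Mrps17 (19.5 ± 0.77; SD, n = 6 for each). Level is computed over all annotated exons, and a gene with long, little-used exons appears low on this scale.

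**Figure D1:**
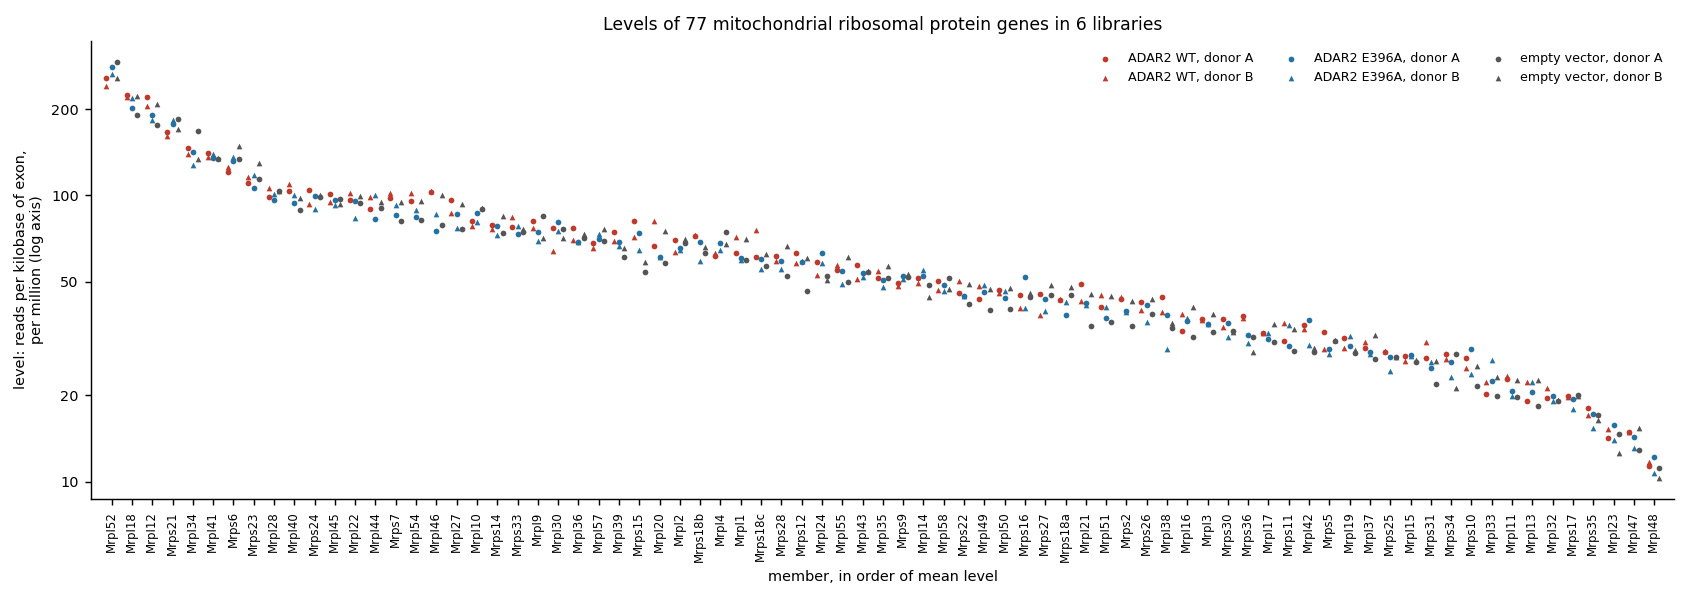
Level of each of the 77 tested genes in the 6 libraries, in scaled reads per kilobase of exon on a log axis, genes ordered by mean level; each point is 1 library, coloured by group. Levels run from 11.2 (mean of Mrpl48) to 266 (mean of Mrpl52), and the libraries of a gene lie close together compared with the distance between genes.

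The libraries lay close together. The SD of the log2 normalized count over the 6 libraries had a median of 0.11 over the 77 genes. It was 0.17 over 68 cytosolic ribosomal protein genes, 0.09 over 79 nuclear genes of respiratory chain subunits, 0.34 over 15 mitochondrial transcripts, and 0.13 over all 10770 tested genes with a mean of at least 50. The ratio of the highest to the lowest library was under 1.3 for 63 of the 77 genes and under 1.5 for 75. Mrpl41, a large-subunit protein without a bacterial counterpart, was the steadiest. It had 575 and 535 normalized counts with ADAR2 WT, 537 and 550 with ADAR2 E396A, and 547 and 530 with empty vector. The summed level of large-subunit genes was between 2.14 and 2.21 times that of small-subunit genes in every library.

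The family took a similar share of the reads everywhere. It was 0.272% and 0.264% of all assigned reads in the ADAR2 WT libraries of donors A and B, 0.261% and 0.253% in the ADAR2 E396A libraries, and 0.248% and 0.265% in the empty-vector libraries. Both ADAR2 WT shares were above both ADAR2 E396A shares, while the ADAR2 WT and empty-vector shares overlapped, since empty vector, donor B, lay between the ADAR2 WT libraries. The first of these orders depended on the denominator. As a share of the reads of nuclear protein-coding genes, ADAR2 WT, donor B, and ADAR2 E396A, donor A, were both at 0.295%. The smallest p that an exact permutation test could give for 2 libraries against 2 is above 0.05, so no test was made on this share.

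The first comparison asked what active ADAR2 changed relative to the empty vector. No gene of the family passed: 0 of 77 had an adjusted p under 0.05 in limma's test, where 0.816% of all 14958 tested genes (122) passed. Before adjustment, 6 of the 77 (7.79%) were under 0.05 in limma, against 14.1% of all tested genes, and 6 in edgeR with median-of-ratios factors, 6 in edgeR with TMM factors and 1 in DESeq2, and none of these tools called a gene of the family after adjustment. Over all genes the limma calls need the donor term and a mean-variance trend: without the donor term 2 genes passed, and without the trend 0 did, here and in the other contrasts. The edgeR test with median-of-ratios factors called 127 of all genes and DESeq2 214. In the authors' deposited DESeq2 results 0 of the 77 genes had an adjusted p under 0.05, against 196 of the 11207 genes given one. The lowest of the 77, that of Mrps15, was 0.348.

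Log2 fold changes were small. They ran from -0.19 to 0.45 with a median of 0.06, against -0.002 over all tested genes. Of the 77, 56 were positive, 72.7% against 49.6% of all tested genes. In limma the 95% interval lay within 0.5 on either side of 0 for 70 of the 77 genes and within 1 for all 77. The limma standard errors behind these intervals had a median of 0.095. The authors' deposited DESeq2 standard errors were all above that median, from 0.13 (Mrps9) to 0.28 (Mrps36). Intervals were not computed from them. The donors differed: the median was 0.11 in donor A and -0.006 in donor B, with 34 genes positive in both donors and 10 negative in both. In 19 genes, 24.7%, both ADAR2 WT libraries were above both empty-vector libraries, against 18.7% of all tested genes. In 7 genes, 9.09%, both were below, against 18.5%.

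Mrps15, a small-subunit protein with a bacterial counterpart that binds ribosomal RNA, stood highest. The gene (ENSMUSG00000028861.13) lies on chromosome 4 from 126046925 to 126055532 on the plus strand (mm10). It had 639 and 536 normalized counts in the ADAR2 WT libraries of donors A and B, 561 and 484 in the ADAR2 E396A libraries, and 420 and 437 in the empty-vector libraries. Libraries of either construct were all above those of empty vector, and the constructs overlapped each other. Its log2 fold change with ADAR2 WT was 0.45 (SE 0.11, limma adjusted p = 0.120), 0.60 in donor A and 0.29 in donor B. The authors' deposited DESeq2 results rest on the ADAR2 WT and empty-vector libraries alone, with a donor term. There Mrps15 did not pass (DESeq2 adjusted p = 0.348). Fitted on the 4 libraries compared alone it passed (limma adjusted p = 0.0015), and likewise with ADAR2 E396A, donor A (limma adjusted p = 0.00158), or ADAR2 E396A, donor B (limma adjusted p = 0.00137), left out. In those 3 fits 8.16%, 8.22% and 8.24% of all tested genes passed, and Mrps15 was the only 1 of the 77. It also passed with empty vector, donor B, left out (limma adjusted p = 0.027), where 5.25% of all tested genes did; the remaining empty-vector library is then assumed to vary like the other groups.

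Of the others above, Mrps36 had 223 and 209 normalized counts with ADAR2 WT, 186 and 172 with ADAR2 E396A, and 186 and 159 with empty vector. Its log2 fold change with ADAR2 WT was 0.33 (SE 0.13, limma adjusted p = 0.315). Although named as a mitoribosomal gene, its protein is now placed in the 2-oxoglutarate dehydrogenase complex. Mrpl42, a large-subunit protein without a bacterial counterpart, had 599 and 553 normalized counts with ADAR2 WT, 607 and 490 with ADAR2 E396A, and 476 and 474 with empty vector. For Mrpl42 all construct libraries were above both empty-vector libraries; its log2 fold change with ADAR2 WT was 0.28 (SE 0.10, limma adjusted p = 0.289).

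At the other end, Mrps6, a small-subunit protein with a bacterial counterpart, had 852 and 848 normalized counts with ADAR2 WT, 906 and 927 with ADAR2 E396A, and 937 and 1009 with empty vector. The 3 groups did not overlap, and the log2 fold change with ADAR2 WT was -0.19 (SE 0.08, limma adjusted p = 0.325). Mrpl4, a protein near the exit tunnel, had -0.18 (SE 0.09, limma adjusted p = 0.383). Mrpl10, which anchors the stalk, had -0.17 (SE 0.09), while Mrpl12 of the same stalk had 0.15 (SE 0.10) and Mrpl45, which holds the ribosome to the inner membrane, 0.04 (SE 0.08). None of these differences passed.

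**Figure D2:**
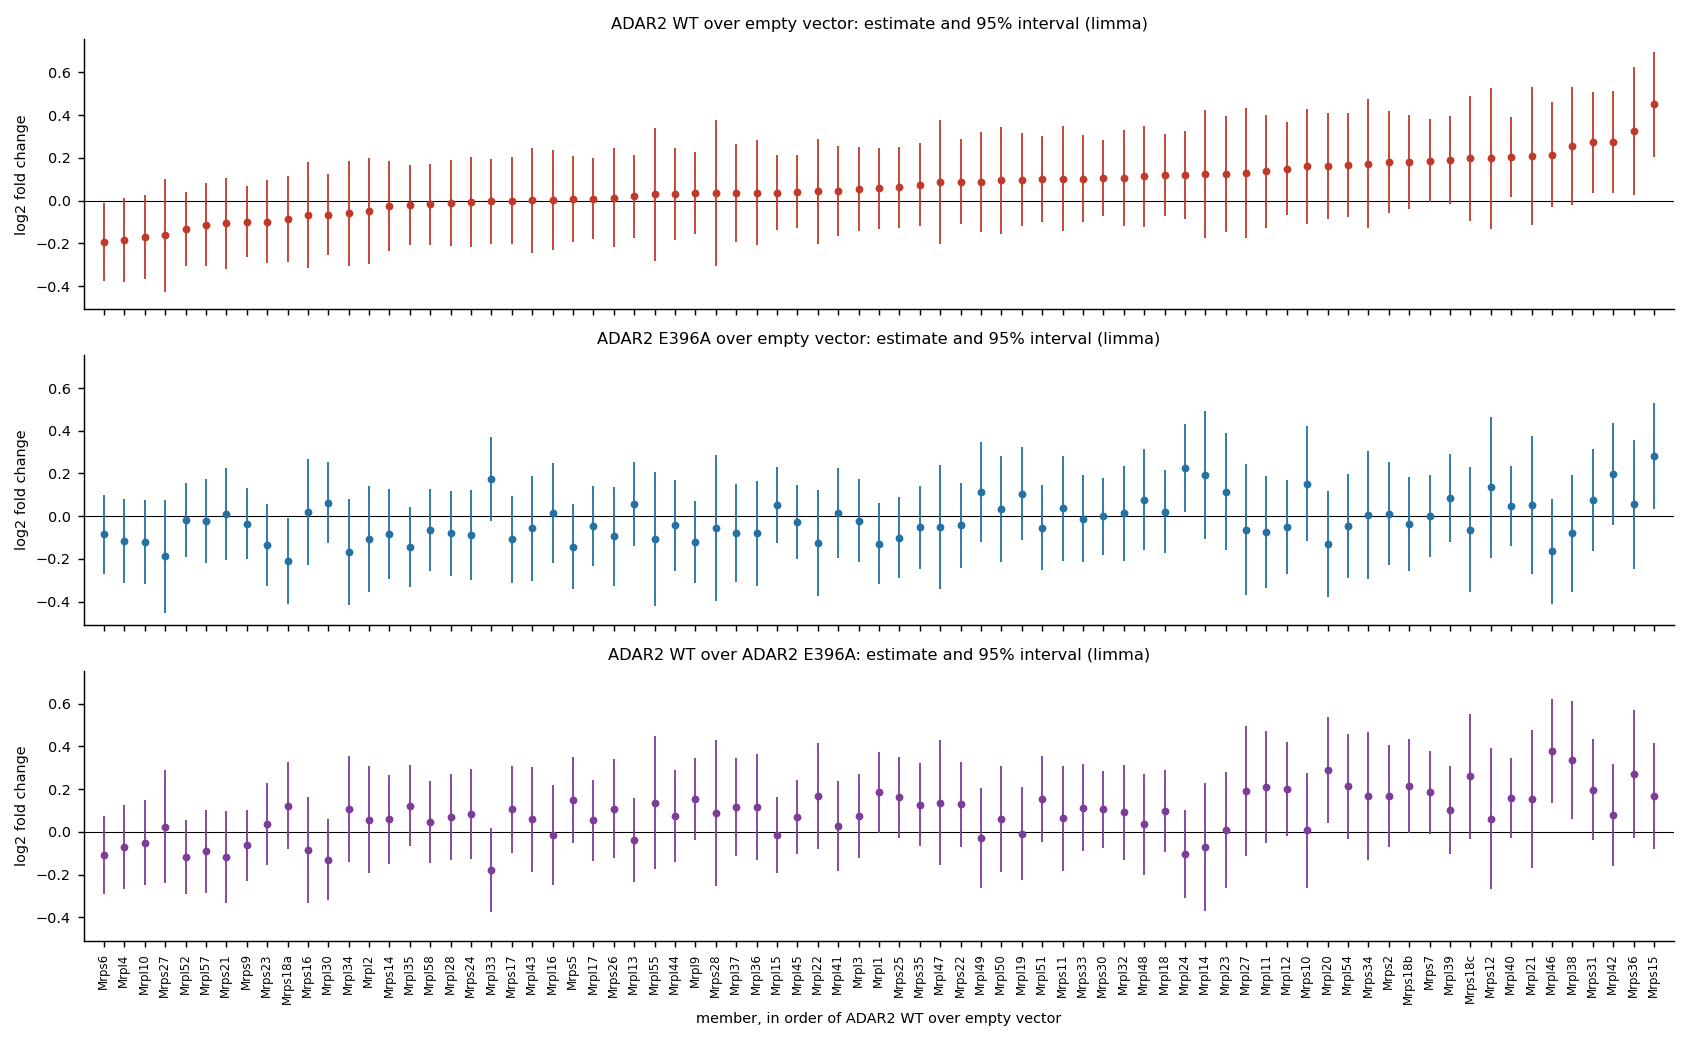
Log2 fold change of each of the 77 tested genes with its 95% interval in limma, for ADAR2 WT against empty vector, ADAR2 E396A against empty vector and ADAR2 WT against ADAR2 E396A. Every point lies between -0.5 and 0.5, and no gene passed at an adjusted p under 0.05.

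The second comparison set the dead enzyme against the same empty-vector libraries. With ADAR2 E396A 0 of 77 genes passed in limma, where 0.0134% of all tested genes (2) did. Before adjustment, 3 genes (3.90%) were under 0.05 in limma, against 3.89% of all tested genes, and 3 in edgeR with median-of-ratios factors, 2 in edgeR with TMM factors and 0 in DESeq2. Of the 77 log2 fold changes 30 were positive, 39.0% against 46.9% of all tested genes. The median log2 fold change was -0.04, against -0.009 over all tested genes. It was 0.04 in donor A and -0.08 in donor B. Both ADAR2 E396A libraries were above both empty-vector libraries in 7 genes, 9.09% against 11.5% of all tested genes, and below in 12 genes, 15.6% against 11.9%. Of the 77 genes, 0 had an adjusted p under 0.05 in the authors' deposited DESeq2 results, against 2 of the 28872 genes given one.

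Besides Mrps15 at 0.28 (SE 0.11), the highest were Mrpl24 and Mrpl42. Mrpl24, a large-subunit protein with a bacterial counterpart, had 638 and 579 normalized counts with ADAR2 E396A, against 538 and 502 with empty vector. Its log2 fold change was 0.23 (SE 0.09, limma adjusted p = 0.999), and that of Mrpl42 was 0.20 (SE 0.10). The lowest was Mrps18a, which despite its name sits in the large subunit, with 634 and 691 normalized counts with ADAR2 E396A, against 755 and 777 with empty vector. Its log2 fold change was -0.21 (SE 0.09, limma adjusted p = 0.999). Mrps27, a small-subunit protein with RNA-binding repeats, had -0.19 (SE 0.12) and Mrpl34 -0.17 (SE 0.11).

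The contrast of the active with the dead enzyme tests the difference between the constructs directly. Again 0 of 77 genes passed in limma, where 0.0669% of all tested genes (10) did, and 3 (3.90%) reached an unadjusted p under 0.05 in limma, against 12.4% of all tested genes. Before adjustment edgeR had 3 with either scaling and DESeq2 1. The log2 fold changes leaned upward, with a median of 0.09, against 0.004 over all tested genes and 0.02 over those with a mean of at least 50. Of the 77, 60 were positive, 77.9%, against 50.9% of all tested genes and 54.7% of those with a mean of at least 50. The median was 0.10 in donor A and 0.07 in donor B, and 48 genes were positive in both donors, 12 negative in both. These are 62.3% and 15.6%, against 32.9% and 29.6% of all tested genes. In 34 genes, 44.2%, both ADAR2 WT libraries were above both ADAR2 E396A libraries, against 19.4% of all tested genes. In 5 genes, 6.49%, both were below, against 17.3%. The median stayed positive with each library left out, from 0.05 (ADAR2 WT, donor A, left out) to 0.13 (ADAR2 WT, donor B, left out). These genes share their libraries and so are no independent replicates of the difference.

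Mrpl46, a protein of the central protuberance of the large subunit (ENSMUSG00000030612.6, chromosome 7, 78775236 to 78783531, minus strand), differed most. It had 671 and 645 normalized counts with ADAR2 WT, against 475 and 539 with ADAR2 E396A. The empty-vector libraries, at 511 and 628, overlapped those with ADAR2 E396A. Its log2 fold change between the constructs was 0.38 (SE 0.11, limma adjusted p = 0.228). Mrps11, which starts back to back with it, had 312 and 343 normalized counts with ADAR2 WT, against 290 and 337 with ADAR2 E396A, overlapping groups with a log2 fold change of 0.06 (SE 0.11).

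Mrpl38, another protein of the central protuberance, had 520 and 440 normalized counts with ADAR2 WT, against 436 and 329 with ADAR2 E396A; the difference was 0.34 on the log2 scale (SE 0.12, limma adjusted p = 0.316). Mrpl20, a large-subunit protein with a bacterial counterpart, had 513 and 596 with ADAR2 WT, against 454 and 450 with ADAR2 E396A; the difference was 0.29 on the log2 scale (SE 0.11, limma adjusted p = 0.333). In both genes the groups did not overlap, and both passed when ADAR2 E396A, donor A, was left out (Mrpl38 0.48, limma adjusted p = 0.0323; Mrpl20 0.43, limma adjusted p = 0.0462). In that fit 7.42% of all tested genes passed, and the remaining ADAR2 E396A library is assumed to vary like the other groups. The lowest were Mrpl33 at -0.18 (SE 0.09), Mrpl30 at -0.13 (SE 0.08) and Mrpl52 at -0.12 (SE 0.08).

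**Figure D3:**
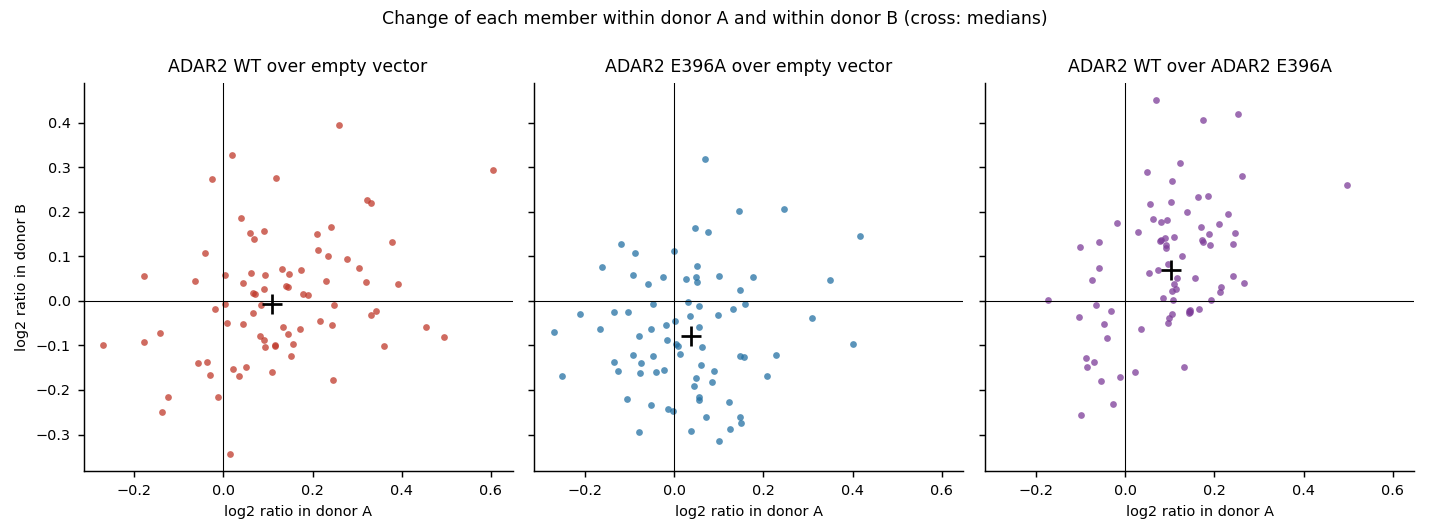
Log2 fold change of each tested gene in donor A (x axis) and donor B (y axis), 1 panel per contrast, each point 1 gene. For ADAR2 WT against empty vector 34 genes are positive in both donors and 10 negative in both; for ADAR2 E396A against empty vector 14 and 24; for ADAR2 WT against ADAR2 E396A 48 and 12.

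Medians were also taken by subunit and by evolutionary origin. In the contrast of ADAR2 WT with ADAR2 E396A the median was 0.08 over the 50 tested large-subunit genes and 0.11 over the 26 small-subunit genes. It was 0.08 over 46 genes with a bacterial counterpart, of which 32 were positive, and 0.11 over 30 without one, of which 27 were positive. Against empty vector the ADAR2 WT medians were 0.05 and 0.07 by subunit and 0.04 and 0.09 by origin. The genes with an ETS motif had a median of 0.01 (25 genes) and those with a promoter but no such motif 0.09 (43 genes). No test was made between these classes. Leaving out the genes that share over 10% of their exon length with another gene left 60, with medians of 0.04, -0.03 and 0.09 in the 3 contrasts.

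No gene of the family passed between the mice. For donor B against donor A, 0 of 77 passed in limma, where 7.51% of all tested genes (1124) did, and 7 (9.09%) reached an unadjusted p under 0.05 in limma, against 22.0% of all tested genes. Before adjustment edgeR had 7 and 6 with median-of-ratios and TMM factors and DESeq2 0. The median log2 difference was -0.04. Mrps34, a small-subunit protein without a bacterial counterpart, had the largest, -0.26 (SE 0.11, limma adjusted p = 0.208), though 77.8% of its exon length is shared with other genes. Mrpl34 had -0.23 (SE 0.09), Mrpl38 -0.22 (SE 0.10) and Mrps16 -0.21 (SE 0.09). Mrpl30 had 910, 1069 and 1013 normalized counts in donor B with ADAR2 WT, ADAR2 E396A and empty vector, against 1147, 1169 and 1129 in donor A. Every donor B library of Mrpl30 was below every donor A library, a difference of -0.21 (SE 0.07, limma adjusted p = 0.118).

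In the same contrast 62 of 68 cytosolic ribosomal protein genes were lower in donor B in limma, with a median of -0.29; these genes have many processed pseudogenes with which reads may be shared. The edgeR test with median-of-ratios factors called 62 and DESeq2 60 of them, but limma called 0 with either ADAR2 WT library left out, when 57 had an unadjusted p under 0.05. Of 79 tested nuclear respiratory chain genes limma called 1 lower, 0 with scaling by total reads or with any ADAR2 WT or empty-vector library left out, and 3 lower and 1 higher with either ADAR2 E396A library left out. Whether the families differ from each other was not tested.

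**Figure D4:**
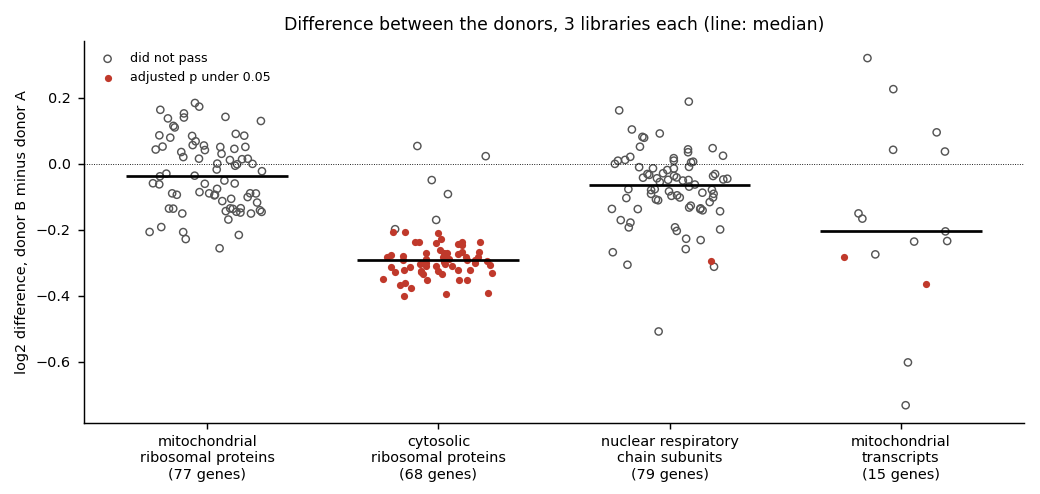
Log2 difference between donor B and donor A for mitochondrial ribosomal protein genes, cytosolic ribosomal protein genes, nuclear respiratory chain genes and mitochondrial transcripts. Each point is 1 gene, with the median as a line. The medians are -0.04, -0.29, -0.06 and -0.20, and 0, 62, 1 and 2 genes passed as lower in donor B.

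Both RNA partners of these proteins passed in limma's fit of the 6 libraries for ADAR2 WT against empty vector, but not under every alternative. With ADAR2 WT 6 of the 15 tested mitochondrial transcripts passed in limma as higher than with empty vector, and 0 passed as lower. Over all tested genes 0.816% passed in that contrast, in either direction. Log2 fold changes of the 15 ran from -1.28 to 0.96, with 10 positive and 5 negative. The 6 that passed include both ribosomal RNAs of the mitoribosome, mt-Rnr1 of the small subunit and mt-Rnr2 of the large. The others were mt-Nd1, mt-Nd2, mt-Nd4 and mt-Tp. mt-Rnr1 had 6435 and 4924 normalized counts with ADAR2 WT, 4963 and 3752 with ADAR2 E396A, and 3359 and 2723 with empty vector, a log2 fold change with ADAR2 WT of 0.90 (SE 0.06, limma adjusted p = 0.0017). mt-Rnr2 had 57683 and 47936 with ADAR2 WT, 52346 and 41827 with ADAR2 E396A, and 39009 and 32655 with empty vector, 0.56 (SE 0.06, limma adjusted p = 0.0142). Both rRNAs also differed between the mice and were lower in donor B. The log2 differences were -0.36 for mt-Rnr1 (limma adjusted p = 0.00625) and -0.28 for mt-Rnr2 (limma adjusted p = 0.0156), and DESeq2 called both. With ADAR2 E396A their log2 fold changes were 0.51 (limma adjusted p = 0.112) and 0.39 (limma adjusted p = 0.542), and 0 of the 15 passed in limma and in edgeR, while 6 had an unadjusted p under 0.05 in limma. DESeq2 called both rRNAs higher with ADAR2 E396A. In limma mt-Rnr1 passed there without a filter on low genes, and 3 and 4 transcripts, both rRNAs among them, passed with ADAR2 E396A, donor A, or ADAR2 E396A, donor B, left out. Leaving out empty vector, donor B, gave mt-Co1 a log2 fold change of -0.32 for ADAR2 WT against empty vector, so it was lower. In that fit mt-Rnr1, mt-Rnr2, mt-Nd1, mt-Nd2 and mt-Nd4 were higher, at 0.94, 0.58, 0.68, 1.05 and 0.45. With ADAR2 WT, edgeR with median-of-ratios factors called 6 and DESeq2 7 of the 15. In limma 0 passed with either ADAR2 WT library left out or without the donor term, 2 without empty vector, donor A, and 10 without either ADAR2 E396A library.

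The ratio of mitochondrial rRNA to mitoribosomal protein mRNA moved with these transcripts. There were 1.21 and 1.05 rRNA reads for each read of the protein genes with ADAR2 WT, 1.15 and 0.94 with ADAR2 E396A, and 0.86 and 0.70 with empty vector. All construct libraries were above both empty-vector libraries. The libraries were depleted of ribosomal RNA before sequencing, so the mitochondrial rRNA counts are what that step left, and its part in the ratio was not tested.

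**Figure D5:**
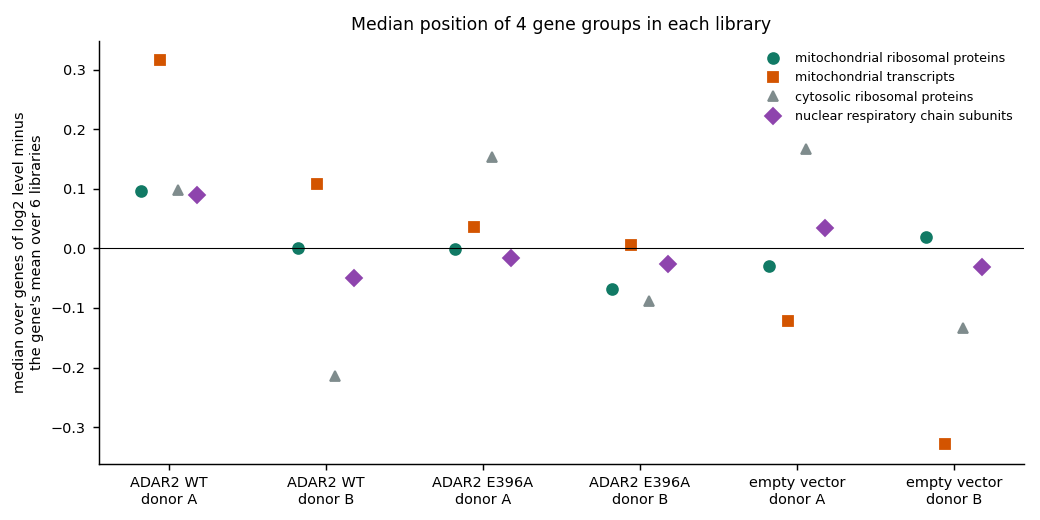
Median over the genes of a group of log2 level minus the gene's own mean over the 6 libraries, for 4 gene groups in each library. Mitochondrial ribosomal protein genes stay between -0.07 and 0.10, while mitochondrial transcripts lie at 0.32 for ADAR2 WT, donor A, and at -0.33 for empty vector, donor B.

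Genes that serve the mitoribosome were read from 6 lists. In each of the 3 contrasts between groups limma called 0 of 5 subunits with other names (Dap3, Ptcd3, Aurkaip1, Chchd1 and Gadd45gip1), 25 assembly and rRNA-modifying factors, 12 translation factors with the insertase, 17 mitochondrial aminoacyl-tRNA synthetases, 15 factors of mitochondrial transcription and RNA processing, and 8 tested regulators such as Nrf1, Gabpa, Yy1 and Myc. Of these 82 genes, 3, 0 and 2 had an unadjusted p under 0.05 in limma for ADAR2 WT against empty vector, ADAR2 E396A against empty vector and ADAR2 WT against ADAR2 E396A, and edgeR and DESeq2 called 0. In the fit of the 4 libraries alone, 1 of the 82 passed for ADAR2 WT against empty vector, where 8.16% of all tested genes did. It was Hsd17b10, a subunit of mitochondrial RNase P, lower with ADAR2 WT (log2 fold change -0.284, limma adjusted p = 0.0213). With either ADAR2 E396A library left out, the log2 fold change of Hsd17b10 was also -0.284. For ADAR2 WT against ADAR2 E396A it was -0.485 when ADAR2 E396A, donor A, was left out. The median log2 fold changes of the 6 lists with ADAR2 WT against empty vector were 0.06, -0.06, 0.06, -0.07, -0.006 and 0.07, in that order. The coactivator gene Ppargc1a did not have enough reads to be tested. Between the mice, where 7.51% of all tested genes passed, 1 gene of these lists did: Oxa1l, the insertase that places newly made proteins in the inner membrane, was lower in donor B (log2 difference -0.31, SE 0.07, limma adjusted p = 0.0407); DESeq2 called 0 of the 82 there. In limma Oxa1l did not pass with scaling by total reads or with any ADAR2 WT or empty-vector library left out. With either ADAR2 E396A library left out, 3 of the 82, Oxa1l among them, were lower and 1 higher.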

How the data were processed

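The 6 libraries were made from RNA depleted of ribosomal RNA and read on a NovaSeq, according to the labels' protocols. The submitters' processing notes name STAR 2.6.1a, featureCounts, DESeq2 1.18.1 and mm10. Whether counting used strand, and which annotation it used, is not stated in those notes. The authors deposited 2 tables, 1 per construct. Per the file headers, these hold a DESeq2 mean and normalized counts by library (both a signal, at least 0), a log2 fold change with its standard error, a Wald statistic (a score) and p-values. The deposited log2 fold change runs from construct to empty vector; values here run the other way.

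All deposited signal values above 0 (100% in each column) came out as whole reads, within 0.001, after division by the smallest. Library columns carry no group or donor label. Groups follow from the table that holds a column, and the distinction of the constructs rests on the names of the tables. Donors are those under which a DESeq2 refit returned the authors' deposited Wald statistics: the largest difference was 0 for ADAR2 WT and 0.0001 for ADAR2 E396A, against 13.8 and 6.08 with donors crossed. The labels state that constructs and empty vector were compared within a donor, so donor is a term of the fit. Whether replicate 1 is donor A or B is not known.

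Scaling used median-of-ratios factors from the 6 libraries; genes were kept by filterByExpr of edgeR 4.0.16 and tested with limma 3.58.1 (R 4.3.3) as log2 of normalized count plus 1. Terms were group and donor, and Benjamini-Hochberg adjustment ran over all 14958 genes at 0.05. limma was used because the deposited values are normalized; edgeR and DESeq2 1.42.0 on recovered reads are alternatives. The written design did not say whether limma should model a mean-variance trend. A first fit without it called no gene in any contrast; the trend was adopted after that was seen, because it gives the 122, 2 and 10 genes of an earlier account of these data. Fold changes understate changes of low genes. Fold changes per donor rest on 1 library a group.

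Genes named were chosen by rule: the 3 highest and 3 lowest per contrast, the 5 highest and lowest levels, the 5 largest donor differences, untested genes, Mrpl10, Mrpl12, Mrpl45 and Mrps36, and passing genes of the related lists. Mrpl22, Mrpl41, Mrps11, Hsd17b10 and the mitochondrial rRNAs were named after their values were seen. The genes and lists were chosen with earlier results of these data known. Sequences are from RefSeq (GRCm38.p6), symbols and positions from GENCODE vM21. 1 further marker gene is not reported here.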

Additional observations from a re-analysis of the deposited data

How the results depend on the processing

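The number of genes of the family that passed was 0 for ADAR2 E396A against empty vector and for donor B against donor A under every alternative run. For ADAR2 WT against empty vector it was 1 (Mrps15) with only the 4 libraries of the comparison and 0 to 1 with each library left out in turn; for ADAR2 WT against ADAR2 E396A it was 0 to 2 with each library left out. The other tools, scalings, pseudocounts and filters gave 0; the cause of these differences was not tested. With no replicate block, 0 passed in each contrast between groups and the medians were 0.06, -0.04 and 0.09; the block changed no call of the family, while over all genes 2, 1 and 0 passed without it, against 122, 2 and 10. With no mean-variance trend, an alternative added after the data were seen, 0 of all genes passed in any contrast, so in limma the calls of the mitochondrial transcripts, the cytosolic ribosomal protein genes and Oxa1l need the trend; edgeR and DESeq2 called 6 and 7 of the mitochondrial transcripts (ADAR2 WT against empty vector) and 62 and 60 of the cytosolic ribosomal protein genes (donor B against donor A). Over all genes, ADAR2 WT against empty vector called 1 with either ADAR2 WT library left out, and 23 and 785 with empty vector, donor A, and empty vector, donor B, left out; it called 1221 with only the 4 libraries and 1229 and 1232 with ADAR2 E396A, donor A, and ADAR2 E396A, donor B, left out. The median log2 fold change with each library left out ran from 0.002 to 0.10 for ADAR2 WT against empty vector, from -0.08 to 0.03 for ADAR2 E396A against empty vector and from 0.0481 to 0.126 for ADAR2 WT against ADAR2 E396A. Of the values of single named genes, 6 newly passed under an alternative (Mrps15 in 4, Mrpl20 and Mrpl38 in 1 each) and 1452 kept their side of the threshold. With reads of nuclear protein-coding genes as the denominator, the share of the family was 0.305% and 0.295% with ADAR2 WT, 0.295% and 0.283% with ADAR2 E396A, and 0.283% and 0.300% with empty vector. For ADAR2 WT against empty vector, the median distance from a fold change to its 95% bound in limma was 0.22 (log2). With 2 libraries a group, differences under about that size are not resolved for a single gene, even before adjustment. After adjustment larger differences did not pass either, the largest being 0.45 for Mrps15 (limma adjusted p = 0.120).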
